A study of Rattus norvegicus with 18 samples.

Results

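The 10 genes described here carry glucose from the cell surface to lactate: the glucose transporter *Slc2a1*, the enzymes *Hk2*, *Pfkp*, *Aldoa*, *Tpi1*, *Gapdh*, *Pgk1*, *Eno1* and *Pkm*, and the lactate dehydrogenase subunit *Ldha*. They were taken by gene name from 3 tables of 32882 genes each, of which 9 of the 10 names had a row and 7 had a mean normalized count of at least 10 in every table. The libraries were 3′ mRNA-seq of rat T-MBP cells, which are CD4+ T cells specific for myelin basic protein that cause experimental autoimmune encephalomyelitis when transferred into Lewis rats. All 18 libraries were made from cells sorted on day 3 after transfer, 3 per group, and every result below has n = 3 per group. In the first 2 groups, control and *Ets1*-KO cells were isolated from the spinal cord parenchyma, in the next 2 control and *Ets1*-KO cells from the spleen, and in the last 2 control and *Grk2*-KO cells from the spleen. All cells came from a cultured line restimulated with MBP before transfer, edited by electroporation of Cas9 with a guide RNA, and KO cells carried EGFP whereas control cells carried BFP and a non-targeting guide, so that the fluorescent protein and the edit cannot be told apart. Recipients were Lewis rats, for which the labels state neither sex nor age, and KO and control cells were injected together. *Ets1* encodes a transcription factor of lymphocytes and *Grk2* a kinase that switches off G-protein-coupled receptors.

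Glycolysis turns 1 glucose molecule into pyruvate in the cytosol and yields ATP without oxygen. Activated T cells raise this pathway, take up glucose through GLUT1, the product of *Slc2a1*, and export much of the carbon as lactate. The hypoxia-inducible factor HIF-1 and MYC are known to drive many of its genes.

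The editing target itself was read first. *Ets1* was counted at 2326, 2573 and 2302 normalized counts in the parenchyma controls of replicates 1, 2 and 3 and at 2682, 2628 and 2342 in *Ets1*-KO cells. In the spleen the controls had 1965, 2038 and 2227 and the *Ets1*-KO cells 1868, 1763 and 2370. *Ets1* RNA was higher in 3 of 3 parenchyma pairs and lower in 2 of 3 spleen pairs, with overlapping groups and no call in either tissue (log2 difference 0.09 ± 0.07 and -0.06 ± 0.11, SE). Since reads at the 3′ end do not show an edit elsewhere in a transcript, they check neither the labels nor the loss of the protein. *Grk2* had 166, 166 and 142 normalized counts in its controls and 53.3, 64.2 and 87.3 in *Grk2*-KO cells, a log2 difference of -1.22 ± 0.13 (SE) in which all 3 edited libraries lay below all 3 controls. Libraries held between 898092 and 2248258 reads on genes. The 3 spleen *Ets1*-KO libraries were deeper (1909862 to 2248258) than their controls (898092 to 1213485), and replicate 3 of the spleen *Ets1*-KO cells stood apart from the other 2. All 10 CD4 T cell markers examined passed the count minimum in each table, whereas of 2 CD8 T cell, 12 myeloid, 10 B cell and 10 CNS markers at most 1 per list did. Erythroid markers, 6 of 9 with a row, summed to 30.6 to 62.4 normalized counts in the spleen libraries of the *Ets1* table and to 3.1 or less in all others.

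Of the 10 genes, 3 could not be followed. No row of the tables was named *Gapdh*. *Tpi1*, the triose phosphate isomerase, was listed at 0 in all 18 libraries. *Pkm*, the pyruvate kinase of T cells, had between 3 and 7 reads per parenchyma library and between 0 and 3 per spleen library. These enzymes are known to be used by all cells, and their genes have near-identical copies in mammalian genomes. Reads that match several places are left out by the counting tool in its default setting, and whether this set these low values was not tested. *Ldha* and *Eno1*, with 13 to 66 reads per library, have such copies too, and their levels are uncertain for the same reason. Among the 9 genes with a row, another row of the tables overlapped *Tpi1* alone.

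To show what lies at the start of the genes on which the results turn, the promoters of *Hk2*, of *Slc2a1* and of *Slc16a3* and *Bsg*, the lactate exporter and its partner described below, are printed 5′ to 3′ from RefSeq (build GRCr8, 250 bases before the start to 50 after it). Capitals mark the letters ACGTG or GCGTG, the core bound by HIF-1, the letters CACGTG, an E-box bound by MYC, and CCGGAA, a core bound by ETS factors, on either strand.
*Hk2* (chr4:116841226-116841525, minus strand): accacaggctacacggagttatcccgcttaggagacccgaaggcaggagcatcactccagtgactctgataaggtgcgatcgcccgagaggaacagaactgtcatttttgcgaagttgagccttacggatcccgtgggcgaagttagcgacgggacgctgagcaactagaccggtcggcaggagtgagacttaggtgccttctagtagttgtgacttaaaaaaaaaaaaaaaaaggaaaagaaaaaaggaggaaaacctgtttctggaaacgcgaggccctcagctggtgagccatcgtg
*Slc2a1* (chr5:138002272-138002571, plus strand): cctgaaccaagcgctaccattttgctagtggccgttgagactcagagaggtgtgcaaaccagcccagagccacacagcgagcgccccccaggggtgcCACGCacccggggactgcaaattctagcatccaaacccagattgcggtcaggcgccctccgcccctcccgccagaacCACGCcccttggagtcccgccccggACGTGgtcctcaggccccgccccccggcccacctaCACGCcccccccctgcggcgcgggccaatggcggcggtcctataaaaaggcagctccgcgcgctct
*Slc16a3* (chr10:106712078-106712377, plus strand): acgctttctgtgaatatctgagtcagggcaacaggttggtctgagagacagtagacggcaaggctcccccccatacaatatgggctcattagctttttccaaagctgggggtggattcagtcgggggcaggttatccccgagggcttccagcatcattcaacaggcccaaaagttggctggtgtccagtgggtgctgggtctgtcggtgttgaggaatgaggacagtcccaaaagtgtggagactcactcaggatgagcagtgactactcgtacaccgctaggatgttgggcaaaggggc
*Bsg* (chr7:10650956-10651255, minus strand): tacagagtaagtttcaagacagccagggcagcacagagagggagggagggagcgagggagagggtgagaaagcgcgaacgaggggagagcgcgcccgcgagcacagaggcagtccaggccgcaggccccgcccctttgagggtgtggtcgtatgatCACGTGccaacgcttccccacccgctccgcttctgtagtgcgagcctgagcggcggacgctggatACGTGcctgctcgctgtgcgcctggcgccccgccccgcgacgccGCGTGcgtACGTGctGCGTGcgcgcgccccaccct

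The *Hk2* and *Slc16a3* windows held none of these letters. The *Slc2a1* window held ACGTG 1 time and GCGTG 3 times. The *Bsg* window held ACGTG 4 times, 2 of which are the 2 strands of its single CACGTG, and GCGTG 2 times. RefSeq gave a promoter for 9 of the 10 genes, all but *Pgk1*, with 12 windows in all. ACGTG was found for 5 of these 9 genes and GCGTG for 5, against 19.25% and 29.70% of all 33469 rat promoter windows of this length. CACGTG was found for 1 gene, *Ldha*, against 6.418% of all windows, and CCGGAA for 1 gene, *Tpi1*, against 14.95%. A gene with several windows had more chances to hold a match than a single window. These are matches of letters, not measured sites.

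In *Ets1*-KO cells of the parenchyma, the hexokinase gene *Hk2* rose and the other 6 genes did not pass the test. The comparison asks what the loss of ETS1 changes in cells that have entered the nervous tissue. Values were compared on log2(normalized count + 1) with limma, with the replicate number as a block because KO and control cells were injected together, and a Benjamini-Hochberg adjusted p under 0.05 over all genes tested was required. Of 7 genes tested 1 was called, beside 5.23% of all 7002 genes tested. The estimates of 6 of the 7 genes were positive, with a median of 0.20 against -0.03 over all genes.

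*Slc2a1* (Rnor_6.0 chr5:138154673-138182897, plus strand), whose product brings glucose into the cell, had 43.0, 39.5 and 44.2 normalized counts in parenchyma controls and 55.6, 51.6 and 63.5 in *Ets1*-KO cells. All 3 edited libraries lay above all 3 controls, the smallest two-sided p of an exact permutation test of 3 against 3 being 0.1. The log2 difference was 0.42 ± 0.20 (SE), with an adjusted p of 0.25 by limma, and was thus not called. Groups that did not overlap were found for 2 of the 7 genes and for 18.4% of all genes tested.

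*Hk2* (Rnor_6.0 chr4:113559427-113610243, minus strand) encodes the inducible hexokinase, which traps glucose in the cell by phosphorylation. It had 106, 81.8 and 91.4 normalized counts in parenchyma controls and 147, 90.0 and 170 in *Ets1*-KO cells. The edited library exceeded the control of the same number in 3 of 3 replicates, by little in replicate 2, and the groups overlapped. The log2 difference was 0.49 ± 0.14 (SE), a fold of 1.41, with an adjusted p of 0.012 (limma). It was called in 8 of 14 alternative fits. The adjusted p was 0.13 without the replicate block, 0.075 without the count filter, 0.33 with DESeq2 and 0.38 without a trend of the variance on the level, against 0.0046 with edgeR. Without replicate 1 it was 0.082, and without replicate 3 it was 0.45 with a difference of 0.30, so that the call rested on these 2 pairs. In bulk libraries a change in the RNA of each cell and a change in the share of cells that express the gene cannot be told apart.

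Of the enzymes further down, *Pfkp*, a subunit of phosphofructokinase, had 94.3, 97.8 and 82.6 normalized counts in controls and 99.1, 80.9 and 85.0 in edited cells. The aldolase gene *Aldoa* (Rnor_6.0 chr1:198228387-198233588, minus strand) had 1081, 1017 and 973 in controls and 1099, 1041 and 969 in edited cells, a log2 difference of 0.02 ± 0.08 (SE). For both genes the groups overlapped and the edited libraries lay on either side of their controls. *Pgk1* (Rnor_6.0 chrX:77263359-77279367, plus strand) encodes phosphoglycerate kinase, the first enzyme of the pathway that yields ATP. It had 655, 591 and 637 in controls and 704, 721 and 734 in edited cells. The edited libraries all lay above the controls, the second such gene, with a log2 difference of 0.20 ± 0.08 (SE) and an adjusted p of 0.15 (limma). The enolase gene *Eno1*, at 57.0 to 60.7 in controls and 56.6 to 63.5 in edited cells, and *Ldha*, at 23.6 to 34.8 and 29.3 to 39.4, overlapped between groups. Their log2 differences were 0.04 ± 0.18 and 0.22 ± 0.24 (SE).

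**Figure D1:**
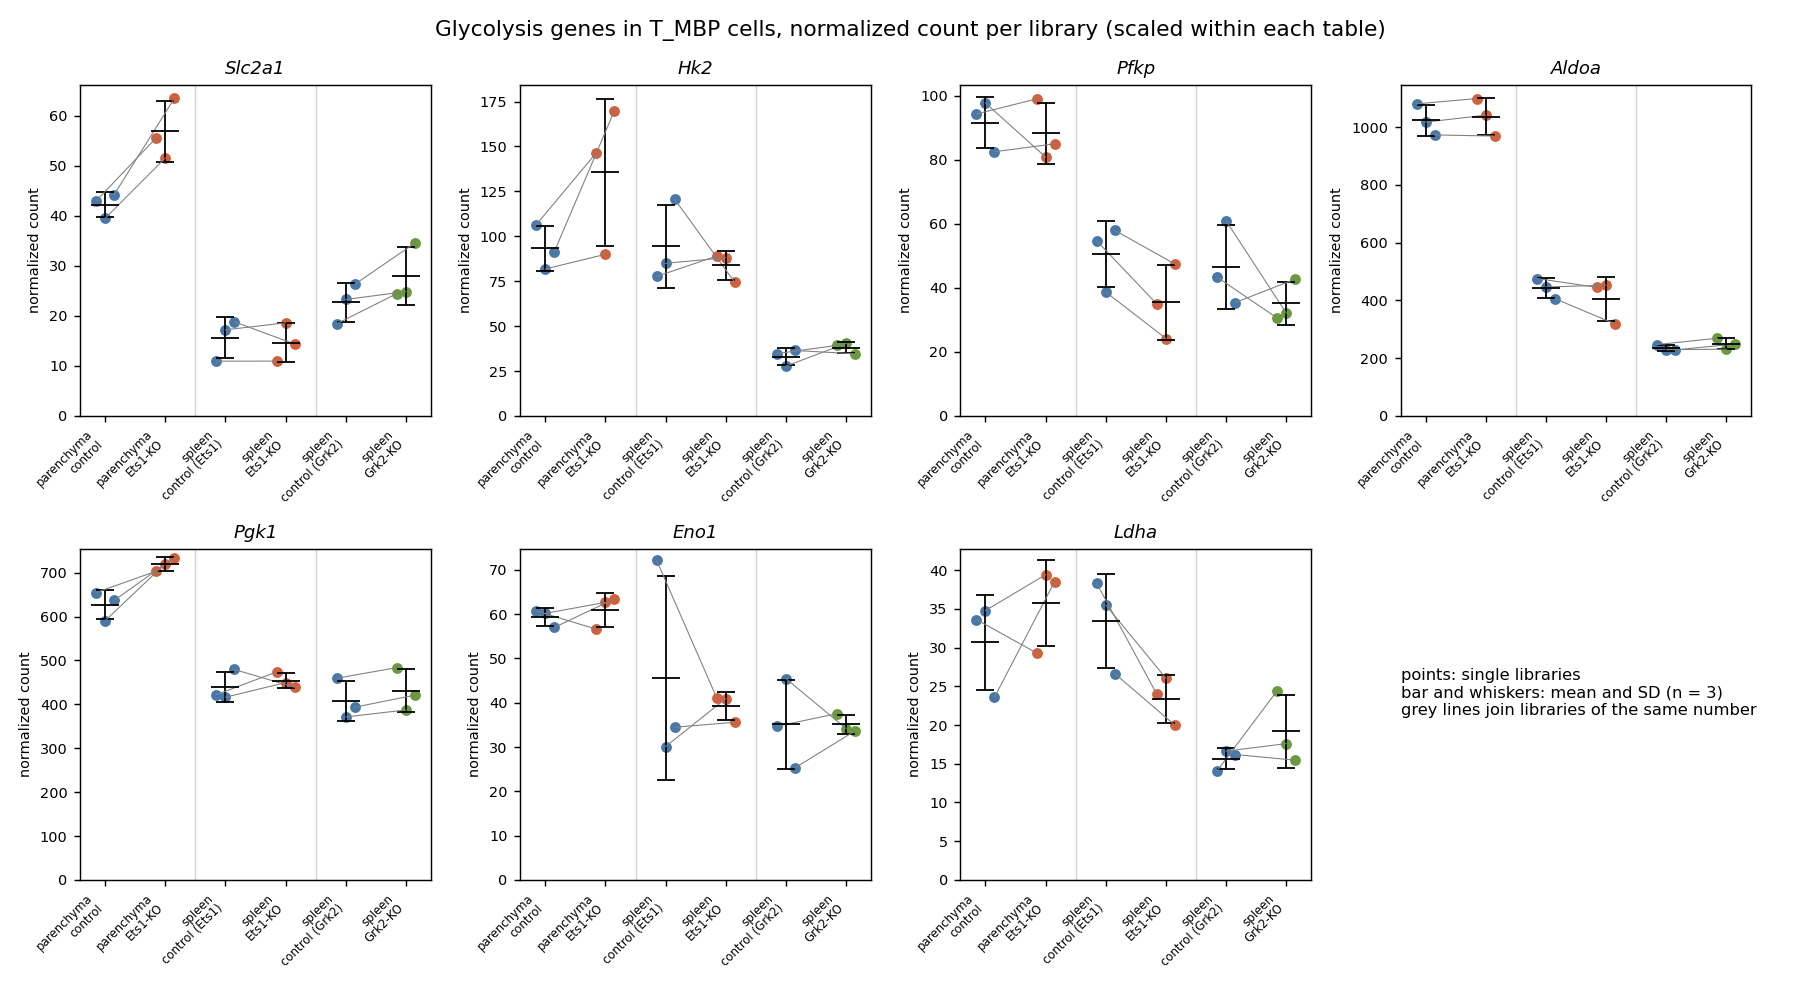
Normalized counts (y axis, linear from 0) of the 7 glycolysis genes that passed the count minimum, in each of the 6 groups of 3 libraries; points are libraries, bars and whiskers the mean and SD, and grey lines join libraries of the same number. *Slc2a1* and *Pgk1* of parenchyma *Ets1*-KO cells lay above their controls without overlap, *Hk2* was higher in each pair, and *Aldoa* was at 969 to 1099 in the parenchyma and at 476 or lower in the spleen, in tables scaled separately.

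In the same parenchyma cells, *Slc16a3* and *Bsg* rose and *Txnip* fell. Of 7 genes tested in a list of 14 for glucose and lactate transport and its regulators, these 3 passed the test, beside 5.23% of all 7002 genes tested. The median log2 difference of the 7 was 0.29 against -0.03 over all genes. *Slc16a3* encodes MCT4, the lactate exporter of glycolytic cells. It had 89.7, 45.1 and 69.8 normalized counts in controls and 100, 83.9 and 124 in *Ets1*-KO cells. The edited library was higher in 3 of 3 pairs and the log2 difference was 0.62 ± 0.16 (SE), with an adjusted p of 0.0039 (limma). In the spleen this gene was at 6.6 normalized counts or less in the *Ets1* table and was not tested there.

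*Bsg* encodes basigin, the protein that brings the lactate transporters to the cell surface. It had 85.9, 59.2 and 103 normalized counts in parenchyma controls and 105, 103 and 146 in *Ets1*-KO cells, higher in 3 of 3 pairs, with a log2 difference of 0.53 ± 0.15 (SE) and an adjusted p of 0.011 (limma). *Txnip* encodes an arrestin-like protein that withdraws glucose transporters from the surface. It had 233, 371 and 261 in controls and 187, 234 and 231 in edited cells, lower in 3 of 3 pairs, and fell by 0.39 on the log2 scale (SE 0.11, adjusted p 0.0089, limma). The levels of both genes overlapped between the groups, each by less than 1 normalized count. Those of *Slc16a3* overlapped by more, with 89.7 in its highest control and 83.9 in its lowest edited library. Each of *Slc16a3*, *Bsg* and *Txnip* lost its call without the replicate block, with DESeq2, without the variance trend and without replicate 2, whose removal gave adjusted p of 0.18, 0.30 and 0.47. *Slc16a3* and *Bsg* lost it also without replicate 3, with adjusted p of 0.14 and 0.084. *Bsg* and *Txnip* lost it also without the filter, with adjusted p of 0.052 and 0.064, and *Txnip* with quantile normalization (0.054, limma).

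Beyond pyruvate, 2 of 20 genes tested for the pyruvate dehydrogenase and TCA cycle rose and none fell, with a median of -0.04. The share called among all 7002 genes tested was 5.23%. The mitochondrial pyruvate carrier subunit *Mpc1* had 93.4, 85.6 and 93.4 normalized counts in controls and 112, 132 and 125 in edited cells (log2 difference 0.43 ± 0.14 SE, adjusted p 0.046, limma). The mitochondrial malate dehydrogenase *Mdh2* had 277, 310 and 266 in controls and 360, 331 and 365 in edited cells (0.31 ± 0.10 SE, adjusted p 0.041, limma). The groups did not overlap for either gene, nor for 18.4% of all genes tested. Both calls were lost on leaving out any one of the 3 replicates, with adjusted p between 0.059 and 0.42, and also without the replicate block (0.11 and 0.13), without the filter, with quantile normalization, with DESeq2 and without the variance trend. Of 6 genes of the pentose phosphate pathway the epimerase *Rpe* rose, by 0.90 ± 0.28 (SE, adjusted p 0.027, limma), from 14.7 to 22.4 normalized counts in controls to 28.3 to 38.5 in edited cells. Of 9 other glycolytic enzymes and isoforms tested, *Eno3*, the enolase of muscle, fell by 1.14 (SE 0.37, adjusted p 0.041, limma) from 12.8 to 26.2 normalized counts to 5.7 to 12.1, at the lower end of what was tested. Without replicate 2 these adjusted p were 0.22 and 0.27. *Rpe* lost its call also without replicate 3 (0.32), and *Eno3* without replicate 1 (0.19), without replicate 3 (0.083) and with quantile normalization (0.084, limma). Both lost it without the replicate block (0.069 and 0.10), without the filter and without the variance trend.

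None of the 8 genes tested of the HIF-1 and MYC axis was called in the parenchyma, the largest difference being 0.49 ± 0.19 (SE, adjusted p 0.12, limma) for the HIF prolyl hydroxylase *Egln3*. Here too the share called over all genes tested was 5.23%. Of 10 HIF-1 targets outside glycolysis 1 rose, *Higd1a*, which encodes a small protein of the inner mitochondrial membrane. It had 234, 237 and 166 normalized counts in controls and 266, 304 and 289 in edited cells, with a log2 difference of 0.45 ± 0.11 (SE) and an adjusted p of 0.0013 (limma), and it passed in 11 of 14 alternative fits, though not without replicate 3, where the adjusted p was 0.24. In the spleen *Higd1a* had 122.5, 145 and 107 in controls and 205, 156 and 169 in *Ets1*-KO cells, higher in 3 of 3 pairs without overlap, at 0.50 ± 0.15 (SE, adjusted p 0.075, limma). Groups did not overlap for 16.9% of all genes tested in that spleen comparison. Genes of cell division moved with the edit: their 11 genes summed to between 510 and 735 normalized counts in parenchyma controls and between 240 and 354 in *Ets1*-KO cells, and 4 of 6 tested fell. The 12 myeloid and microglia markers, 3 of them at 0 in each group, summed to between 25.4 and 50.1 in controls and between 33.4 and 71.8 in edited cells. The 2 CD8 T cell markers, 1 of them at 0 in each parenchyma group, summed to between 0 and 3.7 in controls and between 5.7 and 10.1 in edited cells, without overlap. The part of these lists in the glycolysis genes was not tested.

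**Figure D2:**
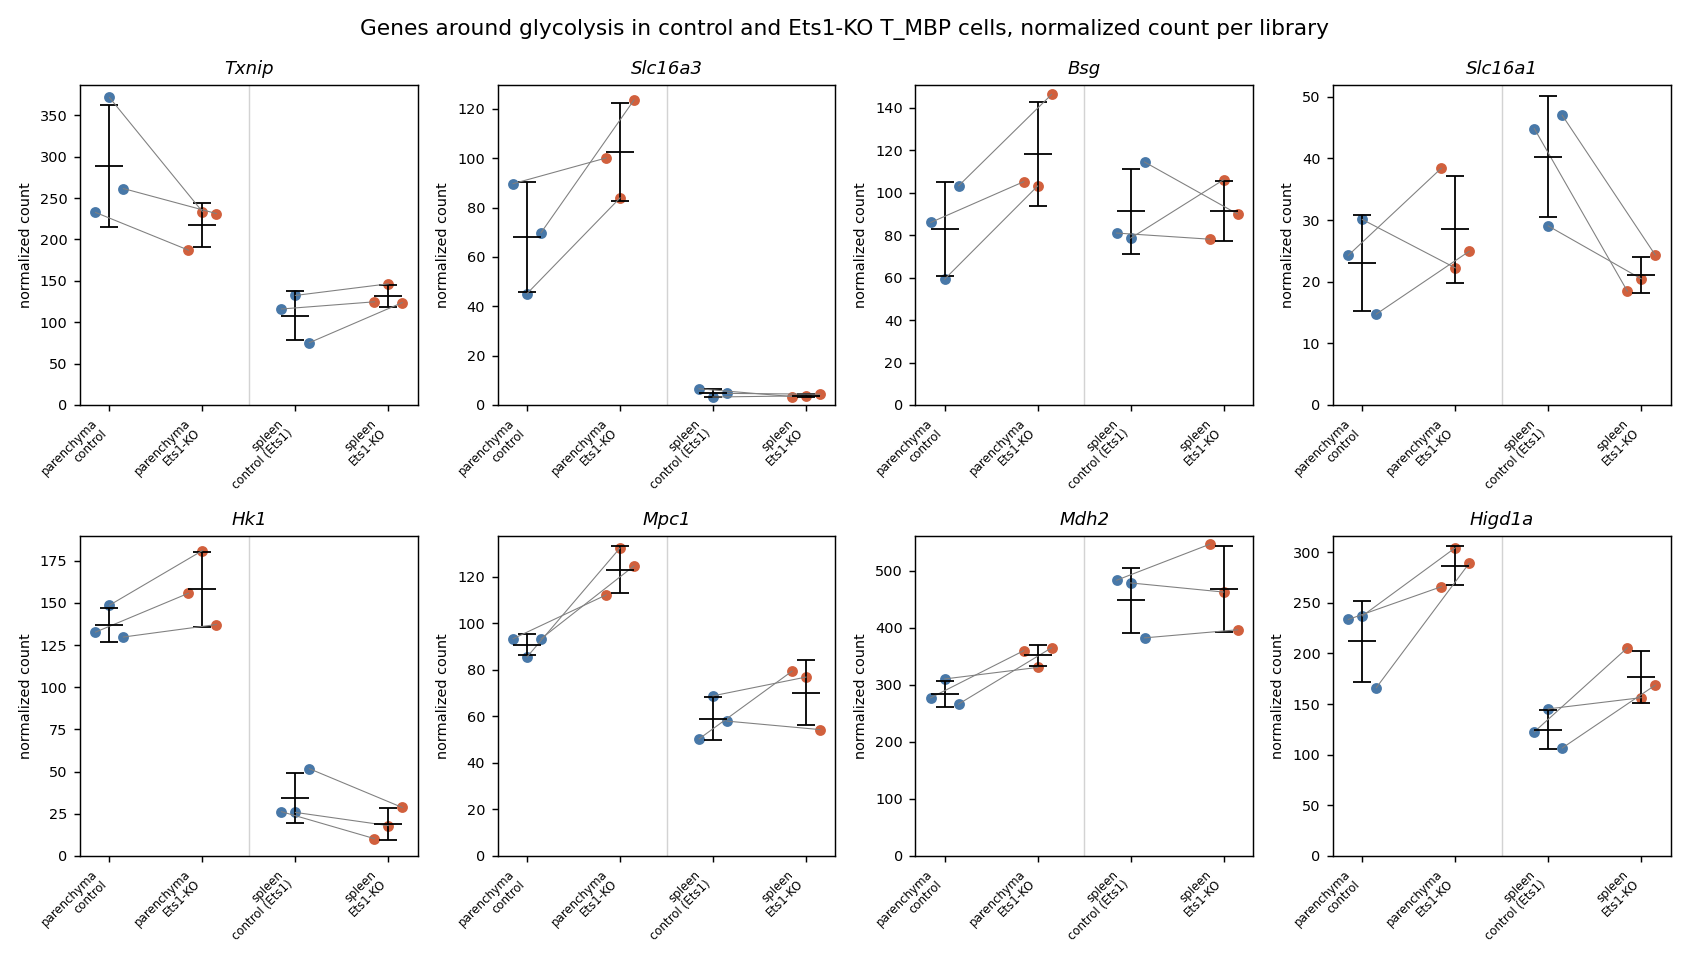
Normalized counts (y axis, linear from 0) of 8 genes around glycolysis in control and *Ets1*-KO cells of the parenchyma and the spleen, 3 libraries per group; points are libraries, bars and whiskers the mean and SD, grey lines join libraries of the same number. *Txnip* was lower and *Slc16a3*, *Bsg*, *Mpc1*, *Mdh2* and *Higd1a* higher in each parenchyma pair, *Higd1a* was also higher in each spleen pair, and *Slc16a3* was at 6.6 or less in the spleen.

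In *Ets1*-KO cells of the spleen, none of the 7 genes passed the test. The background was 2.22% of 6979 genes called, and 0, 0 and 0 of the 7 genes passed with edgeR, with DESeq2 and without the variance trend, with 1 of 7 at an unadjusted p under 0.05, beside 14.1% of all genes tested. The estimates of 6 of 7 genes were negative, with a median of -0.14 against 0.00 over all genes. *Pfkp* had 54.7, 38.7 and 58.0 normalized counts in controls and 34.9, 24.2 and 47.5 in *Ets1*-KO cells, lower in 3 of 3 pairs with overlapping groups. Its log2 difference was -0.52 ± 0.22 (SE), with an adjusted p of 0.29 (limma). *Ldha* had 38.3, 35.5 and 26.6 in controls and 24.0, 26.0 and 19.98 in edited cells. It was the 1 gene of the 7 whose groups did not overlap, beside 16.9% of all genes tested, with a difference of -0.49 ± 0.27 (SE) and an adjusted p of 0.42 (limma).

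*Hk2* had 77.7, 85.0 and 121 normalized counts in spleen controls and 89.0, 88.1 and 74.3 in *Ets1*-KO cells, a log2 difference of -0.15 ± 0.18 (SE) that came from replicate 3 alone. Without that replicate, which holds the library that stood apart, the difference was 0.12. *Slc2a1*, at 10.9 to 18.8 in controls and 10.96 to 18.6 in edited cells, differed by -0.09 ± 0.35 (SE), and *Aldoa*, at 406 to 476 and 318 to 453, by -0.14 ± 0.12 (SE). *Pgk1* differed by 0.05 ± 0.11 and *Eno1* by -0.11 ± 0.25 (SE). Of the related lists, 1 HIF-1 target of 9 rose, *Ddit4*, an inhibitor of mTORC1, by 0.49 ± 0.13 (SE, adjusted p 0.044, limma), where the adjusted p was 0.73 without replicate 1 and 0.078 without replicate 3. *Ddit4* also lost its call without the replicate block (0.24), with DESeq2 (0.16) and without the variance trend (0.41). None of 6 genes of the transport list passed, the largest difference being that of the lactate transporter *Slc16a1*, with 44.8, 29.0 and 47.0 in controls and 18.5, 20.5 and 24.4 in edited cells (-0.88 ± 0.27 SE, adjusted p 0.087, limma). None of 8 other glycolytic enzymes, 19 genes of the TCA cycle, 6 of the pentose phosphate pathway and 7 of the HIF-1 and MYC axis was called. The genes of cell division summed to between 6075 and 7390 in spleen controls and between 4121 and 4853 in *Ets1*-KO cells, and 8 of 11 fell.

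*Grk2*-KO cells of the spleen had no called glycolysis gene. The background was 1.56% of 6985 genes, and none of the 7 genes had an unadjusted p under 0.05 with limma, beside 10.4% of all genes, or passed with edgeR, with DESeq2 or without the variance trend. The groups of libraries overlapped for all 7 genes, whereas 12.2% of all genes tested did not overlap. The estimates of 6 genes were positive and that of *Pfkp* was negative, with a median of 0.08 against 0.02 over all genes. *Pfkp* had 43.4, 61.0 and 35.4 normalized counts in controls and 30.6, 32.1 and 42.7 in *Grk2*-KO cells (-0.38 ± 0.21 SE, adjusted p 0.54, limma), with overlapping groups and 1 of 3 pairs higher. *Hk2* had 34.7, 27.7 and 36.4 in controls and 39.3, 40.4 and 34.6 in edited cells (0.21 ± 0.22 SE). *Slc2a1*, at 18.4 to 26.3 and 24.5 to 34.6, differed by 0.29 ± 0.26 (SE) and was higher in 3 of 3 pairs. For *Aldoa* and *Pgk1*, which have the highest counts, the differences were 0.08 ± 0.09 and 0.08 ± 0.08 (SE), with adjusted p of 0.82 and 0.81 (limma). *Eno1* differed by 0.04 ± 0.22 and *Ldha* by 0.26 ± 0.31 (SE). None was called of 8 other glycolytic enzymes, 7 genes of the transport list, 20 of the TCA cycle, 6 of the pentose phosphate pathway and 7 of the HIF-1 and MYC axis. Of 9 HIF-1 targets outside glycolysis *Anxa2*, a phospholipid-binding protein, was called, at 0.30 ± 0.08 (SE, adjusted p 0.027, limma), with adjusted p of 0.57 without replicate 2 and 0.34 without replicate 3. *Anxa2* passed in only 5 of 14 alternative fits, and its adjusted p was 0.63 without the variance trend (limma). Cell division genes were higher here, with 4 of 11 called and sums of 3169 to 3807 against 2474 to 3264 in controls.

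Whether the effect of *Ets1* editing on these genes differed between the tissues was tested on the log2 ratios of KO to control, 3 per tissue, with limma and a trend on the mean log2 level. No glycolysis gene was called, beside 2.10% of 6520 genes tested, and 1 of 7 had an unadjusted p under 0.05, beside 13.8% of all genes. All 7 differences were positive, which means a higher ratio in the parenchyma, with a median of 0.47 against -0.04 over all genes. *Hk2* differed by 0.64 ± 0.24 (SE, adjusted p 0.16, limma), *Ldha* by 0.72 ± 0.36 (adjusted p 0.37, limma) and *Slc2a1* by 0.50 ± 0.37 (adjusted p 0.60, limma). The rise of *Hk2* in the parenchyma was thus not shown to differ from the spleen, and without replicate 3 its difference was 0.17. The smallest difference was that of *Eno1*, at 0.14 ± 0.30 (SE), and it was -0.13 without replicate 1.

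**Figure D3:**
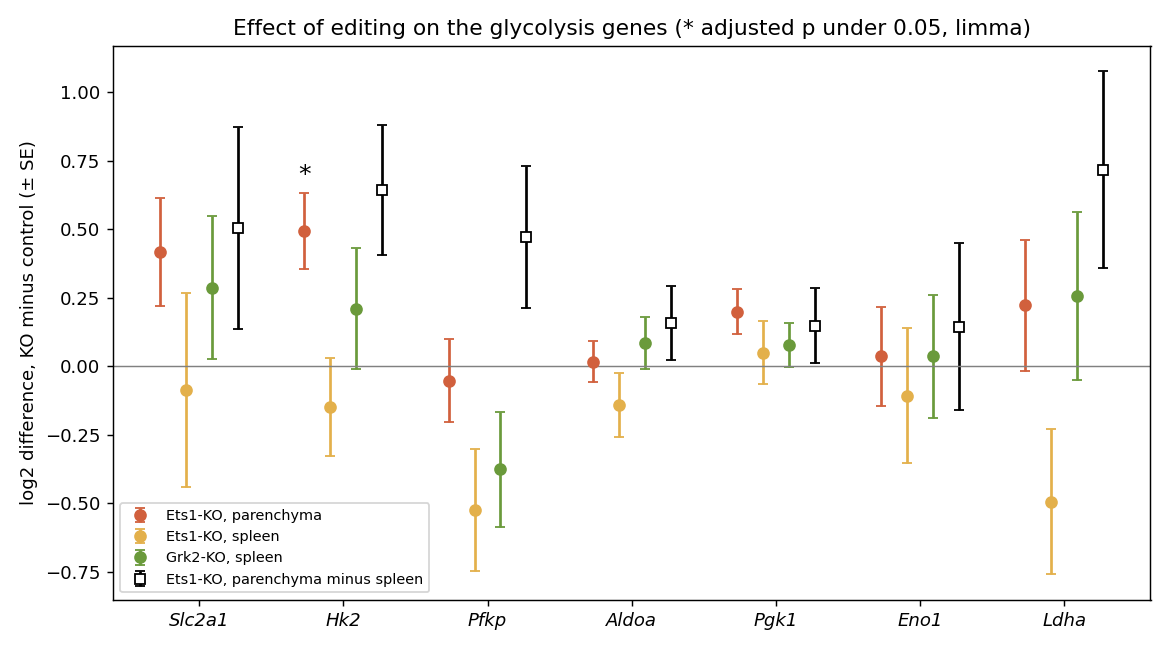
Log2 difference of KO minus control (y axis, on log2(normalized count + 1)) with its SE for the 7 glycolysis genes in 3 comparisons, and the difference between the *Ets1*-KO effects of both tissues as open squares. The star marks *Hk2* in the parenchyma, the one gene called, and all 7 open squares lie above 0 with none called.

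The level of these genes in the control cells was then set side by side in CPM, the counts of a library scaled to the same total, since the 3 tables were scaled separately. Tissue and table cannot be told apart in this comparison and no test was made. Of 7 genes with a mean of at least 10 CPM, 4 had all 3 parenchyma controls above all 6 spleen controls, as had 10.3% of 6661 genes. The median log2 ratio of parenchyma to spleen over the 7 genes was 0.43 against the controls of the *Ets1* table and 0.79 against those of the *Grk2* table, where over all genes it was -0.11 and -0.11.

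*Aldoa* was at 689 to 774 CPM in parenchyma controls, 288 to 358 in spleen controls of the *Ets1* table and 172 to 193 in those of the *Grk2* table, with no overlap between any of the 3 groups and a fold of 2.18 and 3.97 of the parenchyma over the spleen groups. *Slc2a1* was at 27.2 to 31.3 CPM in the parenchyma, 8.24 to 13.4 in the *Ets1* and 14.4 to 19.8 in the *Grk2* spleen controls, again without overlap. Here the order of the spleen groups was the opposite of that of *Aldoa*. *Pfkp* was at 58.5 to 67.5 CPM in the parenchyma, and its spleen groups, at 30.0 to 41.2 and 26.6 to 47.1, overlapped each other. *Pgk1* was at 406 to 469 CPM in the parenchyma and at 318 to 341 and 287 to 360 in the spleen, a fold of 1.35 and 1.41.

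The other 3 genes did not separate the tissues. *Hk2* was at 56.3 to 76.2 CPM in the parenchyma and 58.5 to 85.7 in spleen controls of the *Ets1* table, which overlapped, and at 21.4 to 27.4 in spleen controls of the *Grk2* table. The log2 difference of *Hk2* between the 2 spleen groups was 1.43. Between the parenchyma and the spleen controls of the *Ets1* table, the largest step of the 4 genes above was smaller, 1.28. Against the spleen controls of the *Grk2* table, the step of *Aldoa* was larger, 1.99, and those of *Slc2a1*, *Pfkp* and *Pgk1* were 0.74, 0.83 and 0.49. *Ldha* was at 16.7 to 24.1 CPM in the parenchyma, 18.9 to 28.8 in the *Ets1* and 11.03 to 12.8 in the *Grk2* spleen controls. *Eno1* was at 40.4 to 43.5 CPM in the parenchyma, within the 23.3 to 54.4 of the *Ets1* spleen controls and above the 19.02 to 35.1 of the *Grk2* spleen controls. The summed level of the 9 genes with a row had a median of 1356 CPM in the parenchyma, 828 and 600 in the spleen controls of the *Ets1* and *Grk2* tables. Most of this sum came from *Aldoa*, with means of 721, 331 and 181 CPM in these groups, and *Pgk1*, with 442, 327 and 314. The sum lacks *Gapdh* and holds *Tpi1* at 0 and *Pkm* at means of 3.38, 0.55 and 0.82 CPM. It thus describes the rows that kept reads, not all RNA of the pathway. Mitochondrially encoded genes took 25.4% to 27.4% of counts in parenchyma controls, 17.3% to 18.6% in the *Ets1* and 22.3% to 22.6% in the *Grk2* spleen controls. With these genes left out, 4 of the 7 genes again had all parenchyma controls above all spleen controls.

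**Figure D4:**
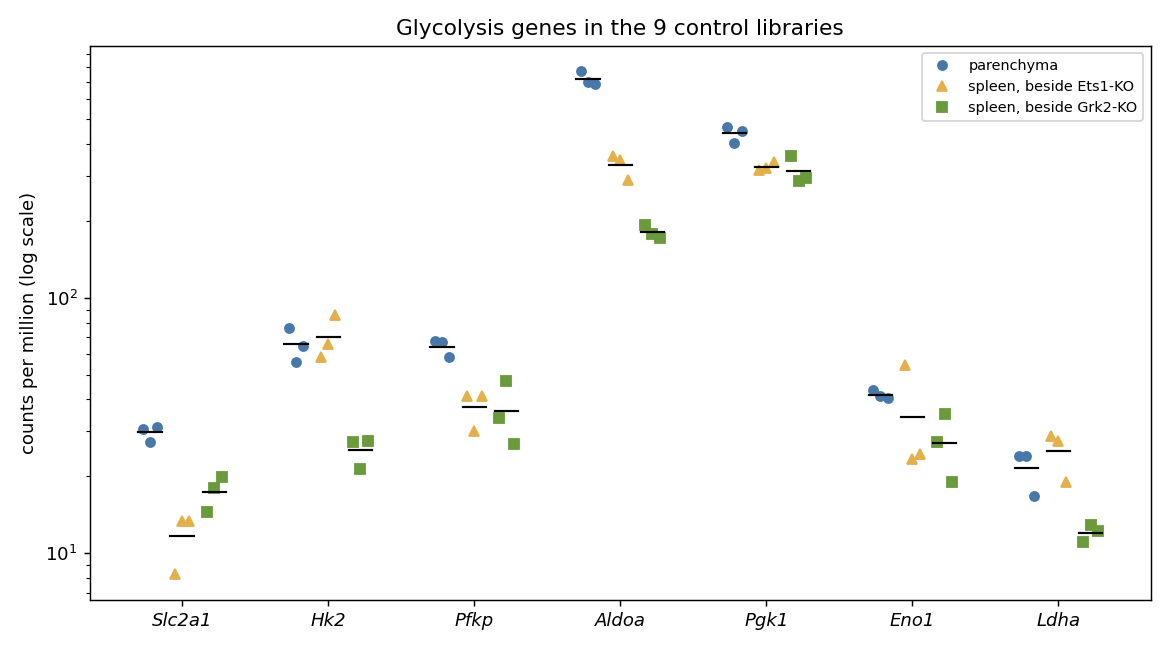
CPM (y axis, log scale) of the 7 glycolysis genes in the 9 control libraries, with the mean of each group as a line. Parenchyma controls lay above all 6 spleen controls for *Slc2a1*, *Pfkp*, *Aldoa* and *Pgk1*, and the spleen groups differed from each other for *Hk2*, *Aldoa*, *Slc2a1* and *Ldha*.

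The 7 genes did not move as a block between libraries. After centring within each table, the correlation of each gene with the mean of the other 6 over the 18 libraries ranged from -0.12 for *Pfkp* to 0.35 for *Ldha*. Among 6200 other genes tested in all tables, the 8 whose centred values were most like the mean of the 7 were *Slc1a5* (Pearson r 0.87), *Rangap1* (0.86), *Ybx3* (0.85), *Thap7* (0.79), *Hypk* (0.76), *Fkbp1a* (0.75), *Prf1* (0.74) and *Zbtb32* (0.72). *Slc1a5* encodes a glutamine transporter and *Prf1* perforin. These values describe the 18 libraries, which share tables and animals, and the 8 genes were picked as the highest of 6200.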

How the data were processed

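The 18 libraries of sorted T-MBP cells were 3′ mRNA-seq, aligned by the authors with STAR 2.7.2b to Rnor_6.0, counted per gene with HTSeq 1.0.0 and divided by DESeq2 2.11.40.7 size factors, per the submitters' processing notes and the methods. The signal values deposited by the authors are such normalized counts, in 3 tables of 32882 genes, and all positive values were multiples of 1 step per library, so that whole reads were recovered (tolerance 0.01). Strand use in counting is not given in the sources used here. The authors' own fold changes and p values were left aside, as were 8 columns that hold human samples.

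Genes that averaged 10 normalized counts or more in a table were tested on log2(value + 1) with limma 3.58.1 (lmFit, and eBayes with a trend), the replicate number as a block, and adjusted p under 0.05. A fold change on this scale understates that of low genes. That equal numbers mark the same animal was assumed in view of the joint injection and is not stated in the labels. Deviations of same-numbered libraries correlated between -0.0030 and 0.18, those of others between -0.16 and 0.050. The pairs of replicate 3 in the parenchyma (-0.0030) and of replicate 2 in the *Grk2* table (0.0062) thus showed no sign of a shared animal. Where numbers do not mark animals, p values measure at most the spread between samples, not between animals. Prior degrees of freedom were infinite in the parenchyma, 22.0 for *Ets1* in the spleen and 141 for *Grk2*. The infinite value means that p values in the parenchyma rest on the spread typical of genes at that level, not on each gene's own. Without the trend this prior was 3.25, and the SE of *Hk2* was 0.18 in place of 0.14. Between tissues, the log2 ratios of the pairs were compared. Control levels were compared in CPM without a test. Exact permutation tests were two-sided, over 20 labellings.

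The alternatives were no block, pseudocounts of 0.1 and 5, no filter or a minimum of 50, quantile, upper quartile and CPM scaling, each replicate left out, no trend, edgeR 4.0.16 and DESeq2 1.42.0 on recovered reads, and a block across tissues. R 4.3.3 and scipy 1.17.1 were used, and the fits were tested on simulated data with 200 genes changed by 1 (log2). Of these genes 81% were called in the parenchyma, 83.5% in the *Ets1* spleen table and 78% in the *Grk2* table. The fit between tissues called only 38.5%, so a missing call there says little. Between 3.7% and 7.2% of the calls were false.

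Named genes were the 10 glycolysis genes, the edited genes, of each other list up to 3 called genes per comparison or else the one with the largest difference, and the 8 genes most like the mean of the glycolysis genes. The genes, lists and tests were chosen with earlier results of these data known. Depth was 898092 to 2248258 reads on genes per library.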

Additional observations from a re-analysis of the deposited data

Results flagged for a closer look

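In the test of the *Ets1* effect between parenchyma and spleen, 2 genes beside the glycolysis genes were called. They were 1 of 7 other glycolytic enzymes tested and 1 of 5 genes of the transport list. The other lists had none, and the share over all 6520 genes tested was 2.10%. The hexokinase isoform *Hk1* had 133, 149 and 130 normalized counts in parenchyma controls and 156, 181 and 137 in *Ets1*-KO cells, and 26.3, 25.8 and 51.7 in spleen controls and 10.3, 17.99 and 28.7 in *Ets1*-KO cells of the spleen. It was higher in 3 of 3 parenchyma pairs and lower in 3 of 3 spleen pairs, a difference between tissues of 1.06 ± 0.27 (SE, adjusted p 0.025, limma), although neither tissue alone passed (adjusted p 0.44 and 0.14, limma). *Txnip* fell in the parenchyma and had 116, 132 and 75.2 in spleen controls against 125, 146 and 124 in *Ets1*-KO cells, a difference of -0.70 ± 0.19 (SE, adjusted p 0.038, limma). Both calls were lost without any 1 replicate, with adjusted p from 0.052 to 0.43 for *Hk1* and from 0.13 to 0.17 for *Txnip* (limma). Without the variance trend they were 0.20 and 0.34, and *Txnip* was lost also with quantile normalization (0.074, limma).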

How the results depend on the processing

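No glycolysis gene was called in any alternative in the 2 spleen comparisons or between tissues. In the parenchyma the single call of *Hk2* became 0 without the replicate block, without the filter, without the variance trend and with DESeq2, and ranged from 0 to 1 without 1 replicate. The 366 genes called in the parenchyma became 200 without the block, 212 without the filter, 3 without the trend and 90 with DESeq2, and 165 to 278 without 1 replicate. The 155 called in the spleen with *Ets1*-KO became 71 without the block, 242 without the filter, 0 without the trend, 238 with edgeR and 50 with DESeq2, and 3 to 241 without 1 replicate (3 without replicate 1). The 109 with *Grk2*-KO became 19 without the block, 60 with a minimum of 50, 0 without the trend and 9 with DESeq2, and 9 to 48 without 1 replicate. The 137 between tissues became 2 without the trend and 26 to 96 without 1 replicate. The cause of these shifts was not tested.

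Signs turned only for differences that were not called. Without 1 replicate, the log2 difference ranged in the parenchyma from -0.11 to 0.056 for *Pfkp*, from -0.021 to 0.11 for *Eno1* and from -0.0082 to 0.43 for *Ldha*. In the *Ets1* spleen table it ranged from -0.18 to 0.054 for *Slc2a1*, from -0.32 to 0.12 for *Hk2*, from -0.0080 to 0.14 for *Pgk1*, from -0.38 to 0.24 for *Eno1*, from -0.60 to 0.0082 for *Cd4* and from -0.42 to 0.10 for *Mbp*. *Eno1* ranged from -0.14 to 0.25 in the *Grk2* table and from -0.13 to 0.40 between tissues, and *Mbp* from -0.51 to 0.35 between tissues. With quantile normalization *Cx3cr1* in the spleen turned to -0.014. The count of 4 genes with higher control levels in the parenchyma ranged from 4 to 5 without 1 replicate. The log2 ratio of *Hk2* controls against the *Ets1* spleen table, -0.09, became 0.063 without mitochondrially encoded genes and 0.061 with upper quartile scaling, and ranged from -0.32 to 0.091 without 1 replicate. Depth limits the precision of *Slc2a1* and *Ldha*, with 56 or fewer reads per library.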

Other observations

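Of the lists outside metabolism, cell division genes were called in every comparison of KO with control cells. In the parenchyma *Tpx2*, *Top2a* and *Mki67* fell by 1.24, 1.16 and 1.15 on the log2 scale in *Ets1*-KO cells, and in the spleen *Cdk1*, *Bub1* and *Mki67* fell by 0.70, 0.67 and 0.67. The 3 spleen calls were lost without replicate 1 (adjusted p 0.45, 0.63 and 0.40, limma) and without the variance trend, those of *Cdk1* and *Bub1* without the replicate block (0.077 and 0.090), and that of *Cdk1* without replicate 2 (0.12). The 3 parenchyma calls were lost without the variance trend alone. In *Grk2*-KO cells *Cdk1*, *Birc5* and *Top2a* rose by 0.54, 0.40 and 0.36, of which *Birc5* passed in 3 of 14 alternative fits, and *Cdk1* and *Top2a* in 9 and 10. Their summed level in control cells was lower in the parenchyma, at a median of 652 normalized counts, than in the spleen, at 6953 and 2679, in tables scaled separately. Of the CD4 T cell markers none was called in any comparison, the largest difference being that of *Cd4* in the parenchyma (-0.60 ± 0.23 SE, adjusted p 0.12, limma).

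Levels of some other glycolysis-related genes also stood apart between the control cells of the tissues, in either direction. *Slc16a3* was at 45.1 to 89.7 normalized counts in parenchyma controls and at 3.2 to 6.6 and 1.0 to 5.4 in spleen controls of the *Ets1* and *Grk2* tables, and *Hk1* at 130 to 149 against 25.8 to 51.7 and 21.7 to 28.3. *Mdh2* was lower in the parenchyma than in spleen controls of the *Ets1* table, at 266 to 310 against 382 to 483. The same held for *Tkt* of the pentose phosphate pathway, at 352 to 428 against 493 to 550. In spleen controls of the *Grk2* table *Mdh2* was at 266 to 328 and *Tkt* at 324 to 364, which overlapped the parenchyma. These values were scaled within each table and no test was made.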
